A study of Drosophila yakuba and Drosophila melanogaster with 20 samples.

Results

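Among 1238 listed A-to-I editing sites of Drosophila melanogaster heads, 226 sites (18.3%, exact 95% binomial interval 16.1 to 20.5) stood alone, with no other listed site within 10000 bp on the same chromosome. They were chosen from the authors' site list by position only. The 1012 remaining sites fell into 193 regions of 2 or more sites joined at gaps of at most 10000 bp, so the isolated sites made up 53.9% of the 419 regions of the list. The label describes sites that are isolated on the list. It does not describe isolation in the RNA, and the base differences recorded around these sites are given further on.

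The study sequenced head RNA of adult flies of D. melanogaster and D. yakuba with and without acrylonitrile, which blocks reverse transcription at inosine. Isolated sites were read here in 4 mock-treated D. melanogaster libraries, made without acrylonitrile from the strain labelled y; cn, bw, sp. They were 2 libraries under the name of the NextSeq instrument, with 86-nt reads, and 2 under that of the HiSeq instrument, with 50-nt reads. Each RNA preparation pooled about 50 heads, per the labels' extraction protocol. That protocol speaks of D. yakuba strains for these samples too, and was taken here to hold for both species. No mutant of the editing enzyme is among the labels. The labels do not say whether replicates 1 and 2 came from separate flies, nor whether tables with the same number came from the same preparation. Differences between libraries may therefore be technical.

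Adenosine deaminases acting on RNA (ADARs) bind double-stranded RNA and deaminate adenosine to inosine, which sequencers report as guanosine. Flies have a single Adar gene, which is active in the nervous system, and many of its known targets encode ion channels and proteins of synaptic transmission. Sequenced against the genome, an edited base shows up as A-to-G, and as T-to-C where the transcript runs on the reverse strand. Known editing ranges from single adenosines within a short hairpin to dense groups within long duplexes.

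Each library table lists positions, reference bases and differing bases on the dm3 genome, with no read counts. The tables held 419113 and 1087962 distinct differences in NextSeq replicates 1 and 2, and 115079 and 196988 in HiSeq replicates 1 and 2. These numbers are not depths. Sequencing depth is unknown, and a site missing from a table cannot be separated into unedited and uncovered. A site is called detected below where a table showed A-to-G or T-to-C at its position. The genes that hold the sites were not annotated here.

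Only scattered stretches of sequence around isolated sites could be read, because the reference base is shown only where a table lists a difference. The pair of 41-base windows shown here come from isolated sites with many unlisted A-to-G positions beside them, and hold more known bases than the other windows read around such sites. They are written 5′ to 3′ on the edited strand, with n for a base that no table shows. The middle capital marks the listed site, and the other capitals mark unlisted adenosines with A-to-G in 2 or more tables. The windows are the forward strands of chr3R:16632237-16632277, with 21 bases known, and chr2L:202185-202225, with 14 bases known (dm3).
Isolated site on 3R: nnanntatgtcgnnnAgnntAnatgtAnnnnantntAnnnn
Isolated site on 2L: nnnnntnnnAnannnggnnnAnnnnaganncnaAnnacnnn
The window on 3R held 3 unlisted adenosines with recurrent A-to-G, and the window on 2L held 2. Bases become visible through differences, A-to-G included, so the base composition of such windows is not that of the genome.

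The distance from an isolated site to the nearest other listed site ran from 10075 to 1124420 bp, with a median of 70935 bp. It was at most 20000 bp for 43 sites, up to 50000 bp for another 47, up to 100000 bp for 42 and above 100000 bp for 93. The remaining member was the only listed site of its scaffold, XHet. Just inside the bound lay the site on 4 at 1072958, with its neighbour at 10075 bp, and the sites on 2L at 19713109 and 19723389, 10280 bp apart. Just outside it lay the sites on X at 12527136, with a neighbour at 9935 bp, and at 5260948 and 5270771, 9823 bp apart. The 3 sites inside were detected in 2, 1 and 0 libraries, and the 3 outside in 2, 2 and 1.

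Isolated sites were most numerous on 3R and, among the 5 large arms, formed the smallest share of the listed sites on X. Arm 3R held 60 of them, 3L 45, X 42, 2R 40, 2L 27 and chromosome 4 held 5, while 7 lay on heterochromatin scaffolds. On X, 42 of 412 listed sites were isolated (10.2%, 7.45 to 13.5). On 3R the share was 60 of 223 (26.9%, 21.2 to 33.2), on 2R 24.7%, on 3L 22.1% and on 2L 15.6%. The X chromosome thus held 18.6% of the isolated sites but 33.3% of the whole list. Counted by region, 42 of 99 regions on X (42.4%) were isolated sites, against 60.0% of the 100 regions on 3R. These shares follow from the positions that chose the members, so no test was made.

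**Figure D1:**
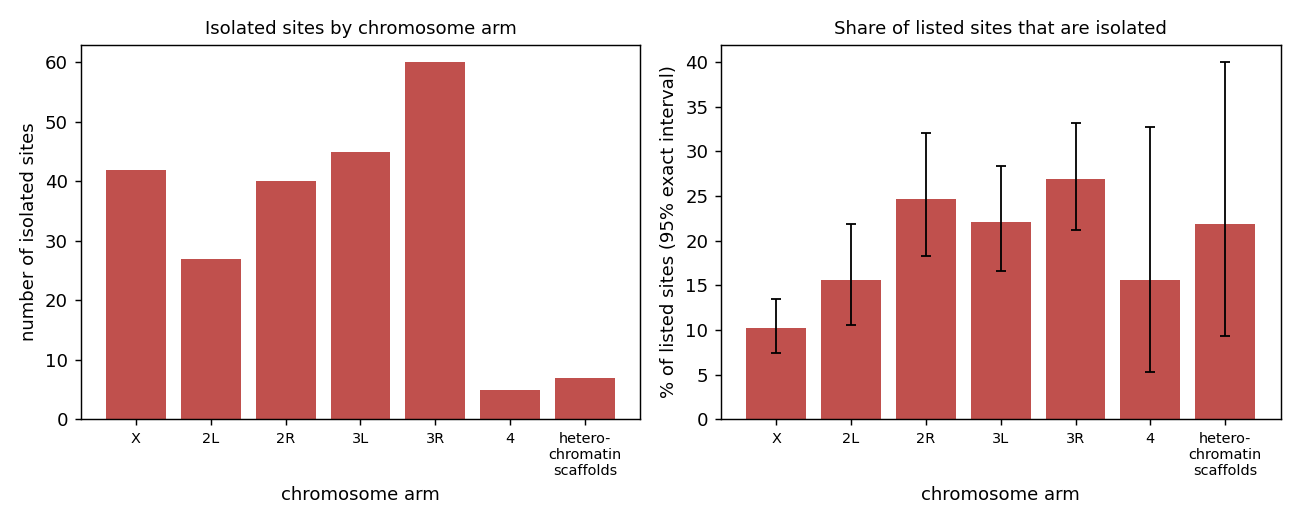
Number of isolated sites on each chromosome arm (left) and their percentage among the listed sites of that arm (right, bars with exact 95% binomial intervals). Arm 3R had the most isolated sites, 60, and X had the lowest percentage among the 5 large arms, 10.2%.

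The edited base was known at 174 isolated sites, those with A-to-G or T-to-C in at least 1 table. It was A, on the forward strand, at 95 (54.6%, 46.9 to 62.1) and T, on the reverse strand, at 79. Among the remaining sites A made up 512 of 910 known bases (56.3%, 53.0 to 59.5), so that the intervals overlapped. By arm, A was known at 14 and T at 16 sites on X, 15 and 6 on 2L, 20 and 12 on 2R, 21 and 12 on 3L, and 20 and 28 on 3R. The other 52 sites showed neither change, and their edited strand was not assigned. At 1 of these, on 2L at 1174732, NextSeq replicate 1 held A-to-T, which gives its reference base as A.

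A lower share of the isolated sites than of the remaining sites was detected in each of the 4 libraries. NextSeq replicates 1 and 2 listed 54 (23.9%, 18.5 to 30.0) and 128 (56.6%, 49.9 to 63.2) of the 226 isolated sites. HiSeq replicates 1 and 2 listed 65 (28.8%, 23.0 to 35.1) and 136 (60.2%, 53.5 to 66.6). For all 1238 listed sites the shares in the same order were 40.5%, 72.0%, 44.9% and 76.3%. For the 1012 remaining sites they were 44.3%, 75.4%, 48.5% and 79.8%. In no library did the intervals of isolated and remaining sites overlap, though these intervals count sites of 1 region as independent.

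The difference, isolated minus remaining sites, was nearly the same in every table. It was -20.4 and -18.8 percentage points in NextSeq replicates 1 and 2, and -19.8 and -19.7 points in HiSeq replicates 1 and 2. The mean was -19.6 ± 0.666 points (SD, n = 4 libraries; exact sign-flip permutation test over libraries, two-sided, p = 0.13). This is the smallest p that 4 libraries allow, and the adjusted p was 0.167 over 4 tests. All 4 libraries were read at the same sites, so this SD and test cover the spread between libraries and not that between sites. The test also takes the 4 libraries as independent, though those with the same replicate number may share a preparation. Sites of 1 region share transcripts, and with 1 site taken per region the mean difference was -12.3 points. Whether these tables helped to make the site list is not stated.

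Traces of reads were also scarcer at isolated sites. A change of another kind, neither A-to-G nor T-to-C, lay within 25 bp of 40.3% and 67.3% of isolated sites in NextSeq replicates 1 and 2, against 50.2% and 83.6% of the remaining sites. In HiSeq replicates 1 and 2 the shares were 11.5% and 19.0% of isolated sites, against 20.5% and 25.9%. Among sites with such a trace in the table, the share detected was again lower for isolated sites in 4 of 4 libraries. The shares were 47.3% and 63.8% of isolated sites in NextSeq replicates 1 and 2, against 67.1% and 80.7% of the remaining sites. In HiSeq replicates 1 and 2 they were 61.5% of 26 and 81.4% of 43 isolated sites, against 73.4% and 88.9%. Both HiSeq intervals overlapped with those of the remaining sites, and the difference in HiSeq replicate 2 was -7.54 points. The mean difference over the 4 libraries was -14.1 points (exact sign-flip test, two-sided, p = 0.13). This comparison was chosen after the data were seen, and a trace of a read shows coverage only roughly. Sites with a trace were not matched on the number of traces. Over all isolated sites its median was 0 and 1 in NextSeq replicates 1 and 2, against 1 and 3 over the remaining sites. In both HiSeq tables the median was 0 for either kind of site.

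**Figure D2:**
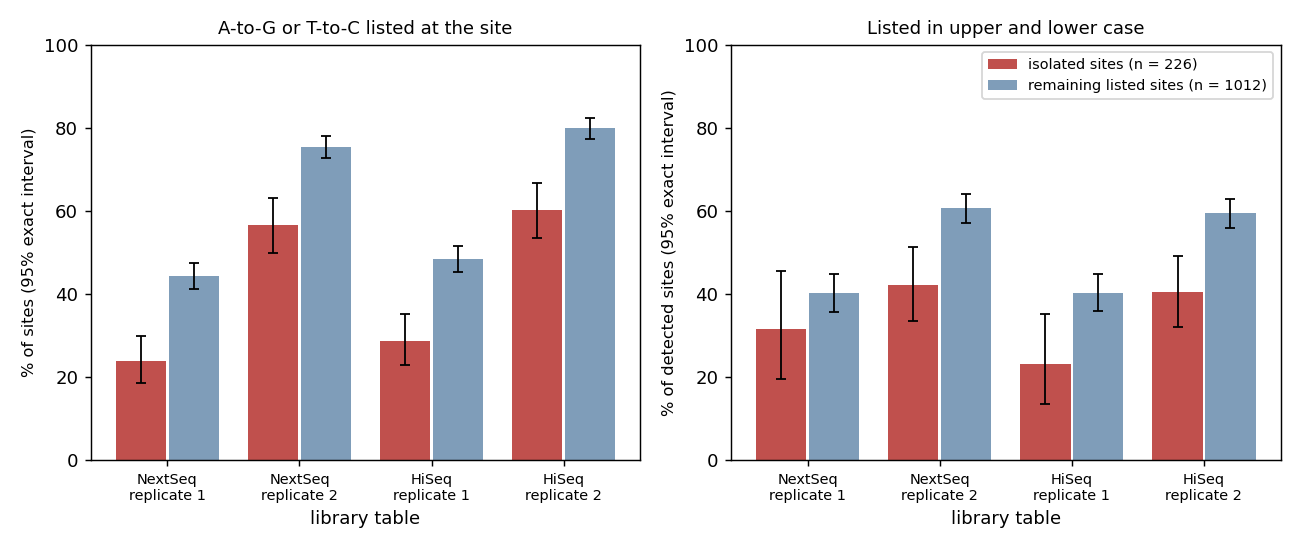
Percentage of sites with A-to-G or T-to-C in each library table (left), and percentage of these detected sites listed in both letter cases (right), for the 226 isolated and the 1012 remaining sites. Error bars are exact 95% binomial intervals over sites. In each library the bar of isolated sites is the lower one in both panels.

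Over the 4 libraries together, 174 isolated sites (77.0%, 70.9 to 82.3) were detected at least once, against 89.9% (87.9 to 91.7) of the remaining sites and 87.6% of all listed sites. All 4 libraries listed 32 isolated sites (14.2%, 9.89 to 19.4), against 32.6% (29.7 to 35.6) of the remaining sites and 29.2% of all listed sites. A further 31 isolated sites were in 3 libraries, 51 in 2, 60 in 1 and 52 (23.0%) in none. Of the remaining sites, 10.1% were in none. Most isolated sites were thus recorded in 2 libraries or fewer. The same held for all listed sites, with 12.4% in none, 17.0% in 1 and 24.3% in 2.

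**Figure D3:**
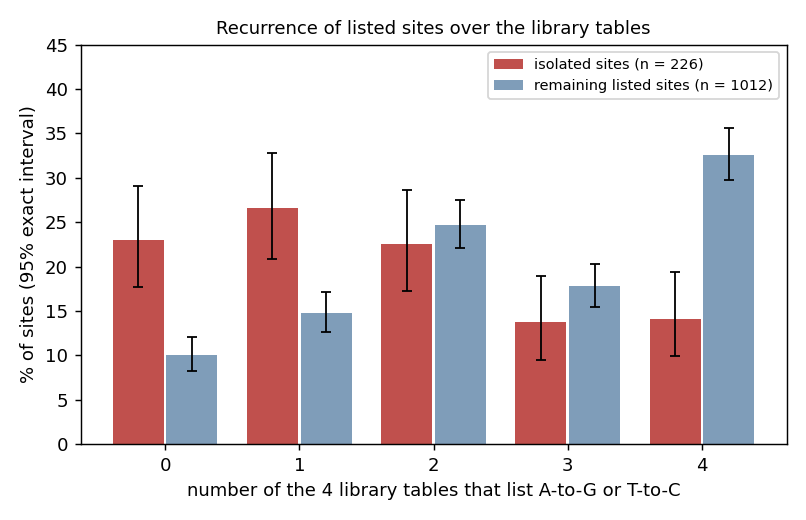
Percentage of isolated and remaining sites by the number of library tables, 0 to 4, that list A-to-G or T-to-C at the site, with exact 95% binomial intervals. Isolated sites stand higher at 0 and 1 tables (23.0% and 26.5%), and the remaining sites at 4 tables (32.6%).

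Replicate 2 tables listed most of the detected isolated sites. Of the 174, 94 were in tables of replicate 2 only, 7 in tables of replicate 1 only and 73 in both. The most frequent combination after absence was a listing in both replicate 2 tables and in no other, at 39 sites. Another 29 sites were in HiSeq replicate 2 alone and 26 in NextSeq replicate 2 alone. These combinations were counted for isolated sites only, so whether they are usual for the whole list was not examined. In the share listed by each table, the whole list had the same order of replicates. Of all 1238 listed sites, replicate 2 listed 72.0% against 40.5% for replicate 1 in NextSeq, and 76.3% against 44.9% in HiSeq. Replicate 2 also had the larger table on each instrument, and depth cannot be told apart from the replicate.

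Instruments differed by less than replicates. NextSeq tables listed 40.3% ± 23.2 (SD, n = 2) of isolated sites and those of HiSeq listed 44.5% ± 22.2 (SD, n = 2), a difference of -4.20 points. The exact permutation test over libraries, two-sided, gave p = 0.667 (adjusted p = 0.667), and 2 against 2 libraries cannot give less than 0.33. Within replicate numbers the difference was -4.87 points for 1 and -3.54 points for 2. In number 1, 15 sites were in the NextSeq table only and 26 in the HiSeq table only. In number 2 these were 31 and 39. Sites in the table of a single instrument were not counted for the whole list. For all listed sites NextSeq was also the lower, with 40.5% against 44.9% in number 1 and 72.0% against 76.3% in number 2.

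Detection was close to even over the distance to the next listed site. With that distance at most 20000 bp, 76.7% of 43 sites were detected at least once. In the next classes, up to 50000 bp, up to 100000 bp and above it, the shares were 76.6%, 76.2% and 77.4%. All 4 libraries listed 14.0%, 12.8%, 9.52% and 17.2% of the sites of these classes, with overlapping intervals. By arm, detection in any library lay between 71.4% of 42 sites on X and 80.0% of sites on 2R, 3R and 4, and here too the intervals overlapped. On chromosome 4, 4 of 5 isolated sites were detected and none of these in all 4 libraries. Of the 7 on heterochromatin scaffolds, 6 were detected.

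The tables print the differing base in capital or small letters, taken here to stand for forward and reverse reads, which the files do not define. Both cases were listed at 17 of 54 detected isolated sites in NextSeq replicate 1 (31.5%, 19.5 to 45.6) and at 54 of 128 in replicate 2 (42.2%, 33.5 to 51.2). In HiSeq they were listed at 15 of 65 in replicate 1 (23.1%, 13.5 to 35.2) and at 55 of 136 in replicate 2 (40.4%, 32.1 to 49.2). For all detected listed sites the shares in this order were 39.2%, 58.0%, 38.3% and 56.7%. For the remaining sites they were 40.2%, 60.7%, 40.3% and 59.4%.

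Both-case listing of isolated sites was thus lower in 4 of 4 libraries, with differences of -8.70 to -19.0 points. The mean difference, isolated minus remaining, was -15.9 ± 4.82 points (SD, n = 4 libraries; exact sign-flip permutation test, two-sided: p = 0.13, as small as 4 libraries allow, adjusted p = 0.167). With 1 site per region the mean was -10.3 points, and with isolation at 1000 bp it was -8.93 points (exact p = 0.25). This last p is not the smallest that 4 libraries allow, so at 1000 bp the isolated share was not lower in every library. In NextSeq replicate 1, where the difference was the smallest, the intervals overlapped. At least 1 library listed both cases at 76 of the 174 detected isolated sites (43.7%), against 608 of 910 remaining sites (66.8%). Where a single case was listed, upper and lower case were about even, with 20 and 17 sites in NextSeq replicate 1, 38 and 36 in NextSeq replicate 2, 24 and 26 in HiSeq replicate 1, and 39 and 42 in HiSeq replicate 2.

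At 8 isolated sites (3.54%) all 4 libraries listed the change in both cases, against 109 of the 1012 remaining sites (10.8%). Among sites in all 4 libraries these were 8 of 32 isolated sites and 109 of 330 remaining sites. The 8 were the sites on X at 2571646, on 2L at 6002117, on 3L at 991441, 8933148, 9860322 and 24024989, and on 3R at 20518299 and 27670470. The edited base was T at 8933148 on 3L and A at the other 7. The nearest other listed site was 482577 bp away for the site on 2L and 296564 bp for that on X, but only 10842 bp for the site at 20518299 on 3R. Isolation by a wide margin and recurrence over all tables thus occurred together at some sites and not at others.

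The other sites that led their arms had fewer both-case listings. On 2R the site at 9404852, with T as the edited base, was in both cases in 3 libraries and in upper case only in HiSeq replicate 1. The sites at 6634216 on 2L and 191196 on 3R also had both cases in 3 libraries, the first with lower case only in NextSeq replicate 1 and the second with lower case only in HiSeq replicate 1. The 2R sites at 9833298 and 7699615 were in all 4 libraries, in both cases in 2 and 1 of them. On X the sites at 4552836 and 16865953 were in both cases in both replicate 2 tables and in upper case only in both replicate 1 tables. On chromosome 4 the leading site, at 1268833, was absent from NextSeq replicate 1, in upper case only in HiSeq replicate 1, and in both cases in both replicate 2 tables.

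Other base changes at isolated positions were few. There were 11 in all, 7 in NextSeq replicate 1, 3 in NextSeq replicate 2, 0 in HiSeq replicate 1 and 1 in HiSeq replicate 2. All but 1 were A-to-T or T-to-A, and none was found in 2 libraries. At 10 of these 11 positions a table also held A-to-G or T-to-C. The remaining sites had 79 such changes, of which 2 recurred. Set against the number of sites, the changes came to 4.87% for the 226 isolated and 7.81% for the 1012 remaining sites. In NextSeq replicate 1 the isolated share was the higher, 3.10% against 1.88%, and in the other libraries it was the lower.

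Beside isolated sites the tables listed further A-to-G differences on the edited strand that were not on the site list. Within 100 bp of the 174 sites of known strand, NextSeq replicates 1 and 2 listed 66 and 176 such positions on the edited strand, against 24 and 33 on the opposite strand. HiSeq replicates 1 and 2 listed 78 and 177, against 7 and 26. The edited strand had more in 4 of 4 libraries, by 102 ± 53.7 positions on average (SD, n = 4 libraries; exact sign-flip permutation test, two-sided: p = 0.13, as small as 4 libraries allow, adjusted p = 0.167). Beside the 910 remaining sites of known strand the edited strand also had more in every library. There NextSeq replicates 1 and 2 listed 374 and 827 positions against 83 and 144. HiSeq replicates 1 and 2 listed 372 and 817 against 78 and 116.

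Recurrent positions beside isolated sites were almost all on the edited strand. In 2 or more libraries 92 positions were listed there and 3 on the opposite strand, while G-to-A on the edited strand, a change that ADAR editing does not make, was listed at 10. In 3 or more libraries the counts were 32 on the edited strand, 0 on the opposite strand and 3 for G-to-A, and in all 4 libraries 9, 0 and 0. At least 1 table of each replicate number listed 51 positions on the edited strand, against 0 on the opposite strand and 6 for G-to-A. Both replicate 1 tables listed 23, against 1 and 4, and both tables of replicate 2 listed 59, against 2 and 3. The remaining sites had the same bias. In 2 or more libraries their counts were 495 on the edited strand, 28 on the opposite strand and 31 for G-to-A. In the same order they were 161, 3 and 6 in 3 or more libraries, and 59, 1 and 2 in all 4. What produced these positions was not tested.

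Positions recurrent on the edited strand lay beside 51 of the 174 isolated sites (29.3%, 22.7 to 36.7). Among all 1084 listed sites of known strand the share was 48.7%, and among the 910 remaining sites 52.4% (49.1 to 55.7). Of the 51, 29 had 1 such position, 12 had 2 and 10 had 3 or more. With a single library as the requirement, 122 isolated sites (70.1%) had a position on the edited strand, against 84.9% of all listed sites of known strand. On the opposite strand 57 isolated sites (32.8%) had a position in at least 1 library and 3 (1.72%) had a recurrent one, against 43.2% and 4.73% of the remaining sites.

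The share with a recurrent neighbour was larger for isolated sites found in more libraries. It was 4 of 60 sites detected in 1 library (6.67%, 1.85 to 16.2), 15 of 51 in 2 (29.4%), 11 of 31 in 3 (35.5%) and 21 of 32 in 4 (65.6%, 46.8 to 81.4). Traces of reads moved with it. A change of another kind lay within 25 bp in at least 1 table for 61.5% of the sites detected in no library, 71.7% of those in 1, 82.4% in 2, 87.1% in 3 and 96.9% in 4. The part of coverage in this order was not tested. Of the 52 undetected sites, counted over both strands, 4 had an unlisted A-to-G or T-to-C position within 100 bp in 2 or more libraries (7.69%, 2.14 to 18.5), against 53 of the 174 detected sites (30.5%).

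The density of recurrent positions on the edited strand was highest next to the isolated site. It was 8.33 positions per kb per site at 1 to 10 bp (29 positions), 2.66 at 11 to 50 bp and 1.49 at 51 to 100 bp. It was 0.575 beyond 100 and up to 200 bp, and 0.0805 beyond 5000 and up to 10000 bp. The opposite strand held 1, 0 and 2 positions in the first 3 of these intervals, and 0.0391 positions per kb per site beyond 5000 bp. Recurrent G-to-A on the edited strand was also densest next to the site, with 0.862 positions per kb per site at 1 to 10 bp, 0.359 at 11 to 50 bp and 0.115 at 51 to 100 bp. Beyond 5000 bp it was close to A-to-G, with 0.0730 positions per kb per site (127 positions against 140). Within 1000 bp, 102 of the 174 sites (58.6%) had a recurrent unlisted position on the edited strand and 33 (19.0%) on the opposite strand.

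**Figure D4:**
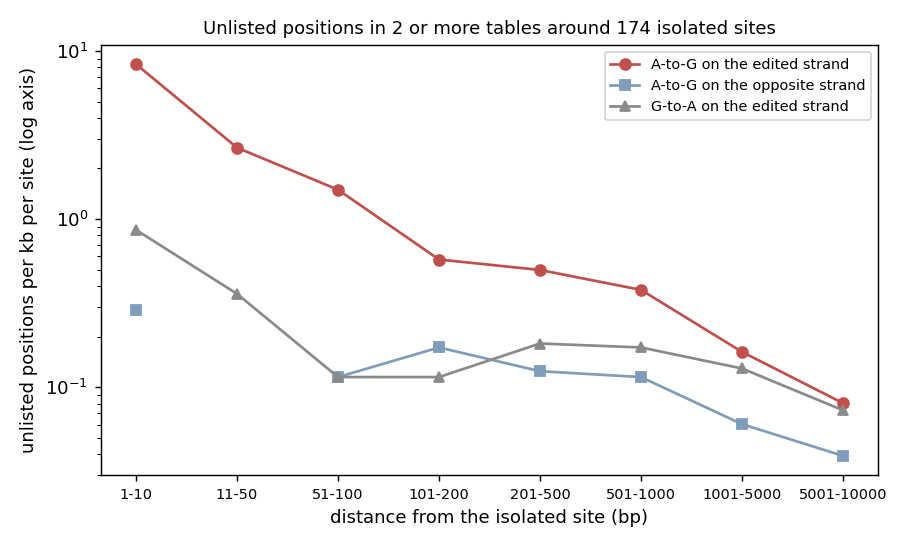
Density of unlisted positions found in 2 or more library tables, per kb and per site on a log axis, against the distance from the 174 isolated sites of known strand, for A-to-G on the edited strand, A-to-G on the opposite strand and G-to-A on the edited strand. No point is drawn where the count was 0 (opposite strand, 11 to 50 bp). The edited-strand density was 8.33 at 1 to 10 bp and 0.0805 beyond 5000 bp.

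Directly beside isolated sites the recurrent positions lay on the 3′ side. Within 2 bp there were 11 on the 3′ side and 0 on the 5′ side, of which 7 were on the next base. Within 100 bp the sides were even, with 47 on the 3′ side and 45 on the 5′ side. Beside the remaining sites the counts within 2 bp were 62 on the 3′ side and 66 on the 5′ side. There a position was counted for every listed site near it, and can lie 3′ of a site and 5′ of another. Within 100 bp the remaining sites had 1010 such counts from 495 distinct positions. Their evenness is therefore not directly comparable with the counts of isolated sites. For isolated sites with a single library as the requirement they were 20 and 13. These counts were picked out after they had been seen, and no test was made. The base 5′ of an isolated site was known at 12 sites, through changes of other kinds, and was G at 0 of them (exact upper limit 26.5%). At 3 to 10 bases away G made up 21.4% of 210 known bases, so that a lack of 5′ G, which ADAR enzymes are known for, was not detectable with so few bases. At the remaining sites the 5′ base was G at 3 of 64 (4.69%, 0.977 to 13.1), against 15.1% of 1538 known bases at 3 to 10 bases away. The 3′ base was G at 37.5% of 16 isolated and 19.3% of 88 remaining sites where it was known.

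The 5 isolated sites ranked first for recurrent neighbours, with ties taken by arm and position, carried 24 of the 92 positions. The site at 9404852 on 2R had 9, of which 7 lay 71 to 86 bp on its 3′ side and the others 10 and 22 bp on its 5′ side. The positions 86, 72, 73 and -22 bp from it were in all 4 libraries, and the first 2 of these in both cases in every library. The listed site itself lacked the lower case in HiSeq replicate 1. This site, isolated on the list by 20809 bp, thus lay beside 4 unlisted positions that, like it, were in all 4 libraries.

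On 3R the site at 16363762 had 5 recurrent neighbours, of which those 6 bp on its 3′ side and 17 bp on its 5′ side were in all 4 libraries. The site at 16632257 on 3R, whose window is printed above, had 4, at -28, -5, 6 and 16 bp, in 2 or 3 libraries each. On 2L the site at 202205, the other printed window, had 3, and that 13 bp on its 3′ side was in all 4 libraries. The site at 6634216 on 2L also had 3, each in 2 libraries. The 2 other positions found in all 4 libraries lay next to the site at 9833298 on 2R, on its 3′ side, and 2 bp on the 3′ side of the site at 24024989 on 3L.

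**Figure D5:**
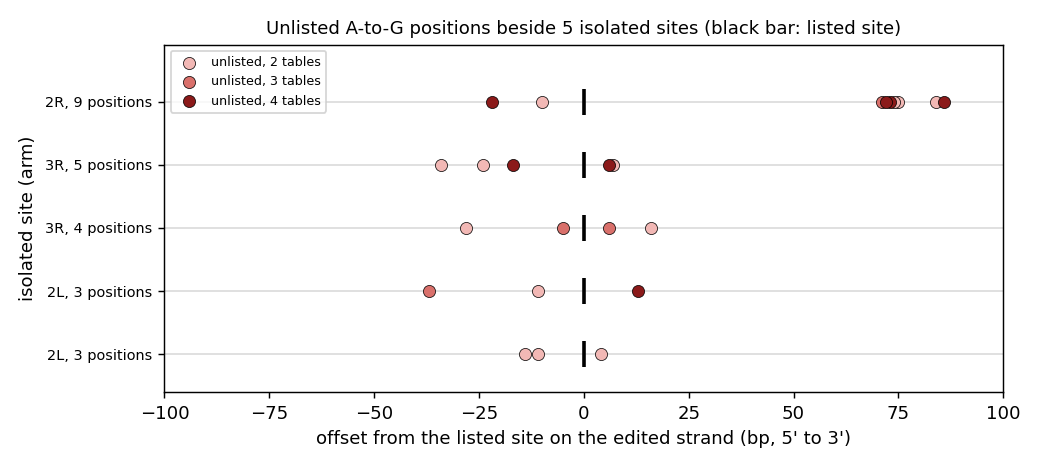
Offsets in bp, 5′ to 3′ on the edited strand, of unlisted A-to-G positions found in 2, 3 or 4 library tables within 100 bp of the 5 isolated sites that had the most of them. Black bars mark the listed site, and darker points mark more tables; the site on 2R had 9 such positions, 7 of them 71 to 86 bp on its 3′ side.

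In each table a smaller share of the unlisted neighbours than of the isolated sites was listed in both cases. Of the recurrent neighbours present in a table, both cases were listed for 18.4% of 38 in NextSeq replicate 1, 15.1% of 73 in NextSeq replicate 2, 17.8% of 45 in HiSeq replicate 1 and 24.6% of 69 in HiSeq replicate 2. The isolated sites had 31.5%, 42.2%, 23.1% and 40.4% in this order. Isolated sites needed only 1 library, and with that requirement the neighbours had 10.6%, 7.95%, 10.3% and 11.9%. For the recurrent neighbours, the intervals overlapped those of isolated sites in both replicate 1 tables and in HiSeq replicate 2, and not in NextSeq replicate 2.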

How the data were processed

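The members and the comparisons were chosen with earlier results of these data known. Per the labels' protocols, TopHat 2.0.6, running Bowtie 2.0.2, aligned the reads to dm3 with up to 4 mismatches and 1 alignment each, and bsmap 2.74 took the unmapped reads with up to 3. The submitters' processing notes add SAMtools 0.1.19. The calling of differences and of sites is not described in the sources used here. Per the file headers, each table gives chromosome, position, reference base and differing base, with no counts. The deposited site list gives positions only. The mismatch limit can remove reads with many edited bases, and a single alignment per read leaves repeats uncertain.

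From these, sites with their nearest listed neighbour over 10000 bp away were taken as isolated. Shares have exact (Clopper-Pearson) 95% intervals, for counting error only. Differences were tested over the 4 libraries by exact permutation, two-sided, adjusted by Benjamini-Hochberg over 4 tests. The libraries were read at the same sites, so these tests do not measure the spread between sites. They also take the 4 libraries as independent, which the labels do not establish. Sites named in the text were the 3 leading ones of each large arm and the first of chromosome 4, by number of libraries and then of both-case listings, the 5 with the most recurrent unlisted neighbours, and those next to the bound; the other sites in both cases or positions in all 4 libraries were named after their values were seen. The other 16 libraries and the D. yakuba list were not used. Steps were tested on simulated data. Tools were scipy 1.17.1 and numpy 2.4.6 for the tests, pandas 2.3.3 for the tables and matplotlib 3.10.9 for figures, under Python 3.11.15.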

Additional observations from a re-analysis of the deposited data

How the results depend on the processing

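Of 65 alternative values, 57 kept their direction and their side of the threshold or stayed within the interval of the reported share. Isolated minus remaining detection stayed between -20.7 and -12.3 points over its 12 alternatives (exact p 0.13 to 0.25), the both-case difference between -18.2 and -8.93 points over 10, and the excess of edited-strand positions between 54.8 and 195 over 12. These included isolation distances of 1000, 5000 and 20000 bp, the main arms only, and the list without X. At 1000 bp the mean both-case difference kept its direction, but not every library did. No test here can pass 0.05.

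NextSeq minus HiSeq detection of isolated sites changed sign to 0.221 points when both letter cases were required. It ranged from -20.6 to 12.2 points with 1 library left out: 12.2 without NextSeq replicate 1 and 11.5 without HiSeq replicate 2, but -20.6 without NextSeq replicate 2 and -19.9 without HiSeq replicate 1, because each arm then holds unequal replicate numbers. With the replicate number as a block the difference was -4.20 points (exact p = 0.5, the smallest for 2 pairs). The numbers are not stated to pair the libraries. With both cases required, 33.6% of isolated sites were detected in any library and 3.54% in all. With 1 library left out, detection in any library ranged from 64.2% (without HiSeq replicate 2) to 76.1%, and was 65.5% without NextSeq replicate 2. Detection in all libraries ranged from 15.0% to 22.1%, the highest without NextSeq replicate 1, and each of these asks for 3 tables in place of 4. Without read counts, undetected sites cannot be told from uncovered ones.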
